A study of Bos taurus with 6 samples.

Results

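Serpins, coagulation factors and complement proteins are plasma protein and protease inhibitor genes, taken here from a count table of bovine fetal liver, rumen and forebrain as every symbol of a set of names: all SERPIN genes, the numbered coagulation factors, the 3 fibrinogen chains, PLG, PROC and PROS1, the ITIH chains, and the numbered and lettered complement components and factors. The names alone chose 76 of the 14179 symbols in the table. The samples were poly(A) RNA libraries of wild-type (WT) male Holstein fetuses at 90 days, with a crown-rump length of 13 to 16 cm, collected at a slaughterhouse. No treatment separated the groups, which were liver, rumen (the largest forestomach chamber) and forebrain, with 2 libraries each, called library 1 and library 2 of the tissue. The labels' protocol lists 2 male fetuses, so tissues shared fetuses, and it does not say which fetus gave which library. The p-values therefore cover no more than the spread among these 6 libraries, and part of that spread may be technical.

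Coagulation is a cascade in which each zymogen is cut into an active protease by the one before it, ending with thrombin cutting fibrinogen into fibrin. Complement is a parallel cascade that begins with C1, with lectins or spontaneously at C3, and ends in a pore built from C5 to C9. Serpins are suicide inhibitors that trap such proteases, and a few have lost that activity and act as carriers or chaperones. Hepatocytes secrete most of the plasma members, whereas macrophages, endothelium, epithelium and neurons make others.

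Total counts were 16550273 and 18528958 in liver, 12910828 and 11936981 in rumen and 10271024 and 12295634 in forebrain. Levels are in CPM, counts relative to the library's total after TMM scaling, and wherever 2 levels of a tissue are given, library 1 comes first. Gene length was not corrected, so levels are compared between tissues and not between genes. The libraries carried the markers of their labels. Summed over 13 hepatocyte markers, the level was 198355 and 136882 CPM in liver, 179 and 149.6 CPM in rumen and 194 and 282 CPM in forebrain, and none of the 13 was at 0 in liver. For 8 stratified squamous epithelium markers it was 14257 and 11618 CPM in rumen, and for 10 neuron markers 12118 and 11555 CPM in forebrain, again with none at 0 in that tissue. In such bulk samples, fewer cells of a type and less RNA per cell cannot be told apart.

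Most counts of the members lay in liver. The 76 genes took 5.79% and 8.89% of all counts in liver, 0.168% and 0.158% in rumen and 0.107% and 0.104% in forebrain. SERPINA1, which encodes alpha-1-antitrypsin, the inhibitor of neutrophil elastase, alone took 3.48% and 5.52% of the counts in liver. Without SERPINA1 the other 75 genes still took 2.31% and 3.36% in liver, 0.168% and 0.158% in rumen and 0.107% and 0.104% in forebrain. The mean level was highest in liver for 58 members, in rumen for 7 and in forebrain for 7. The remaining 4, SERPINA3, SERPINB2, SERPINB7 and SERPINB10, had no counts in any library.

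**Figure D1:**
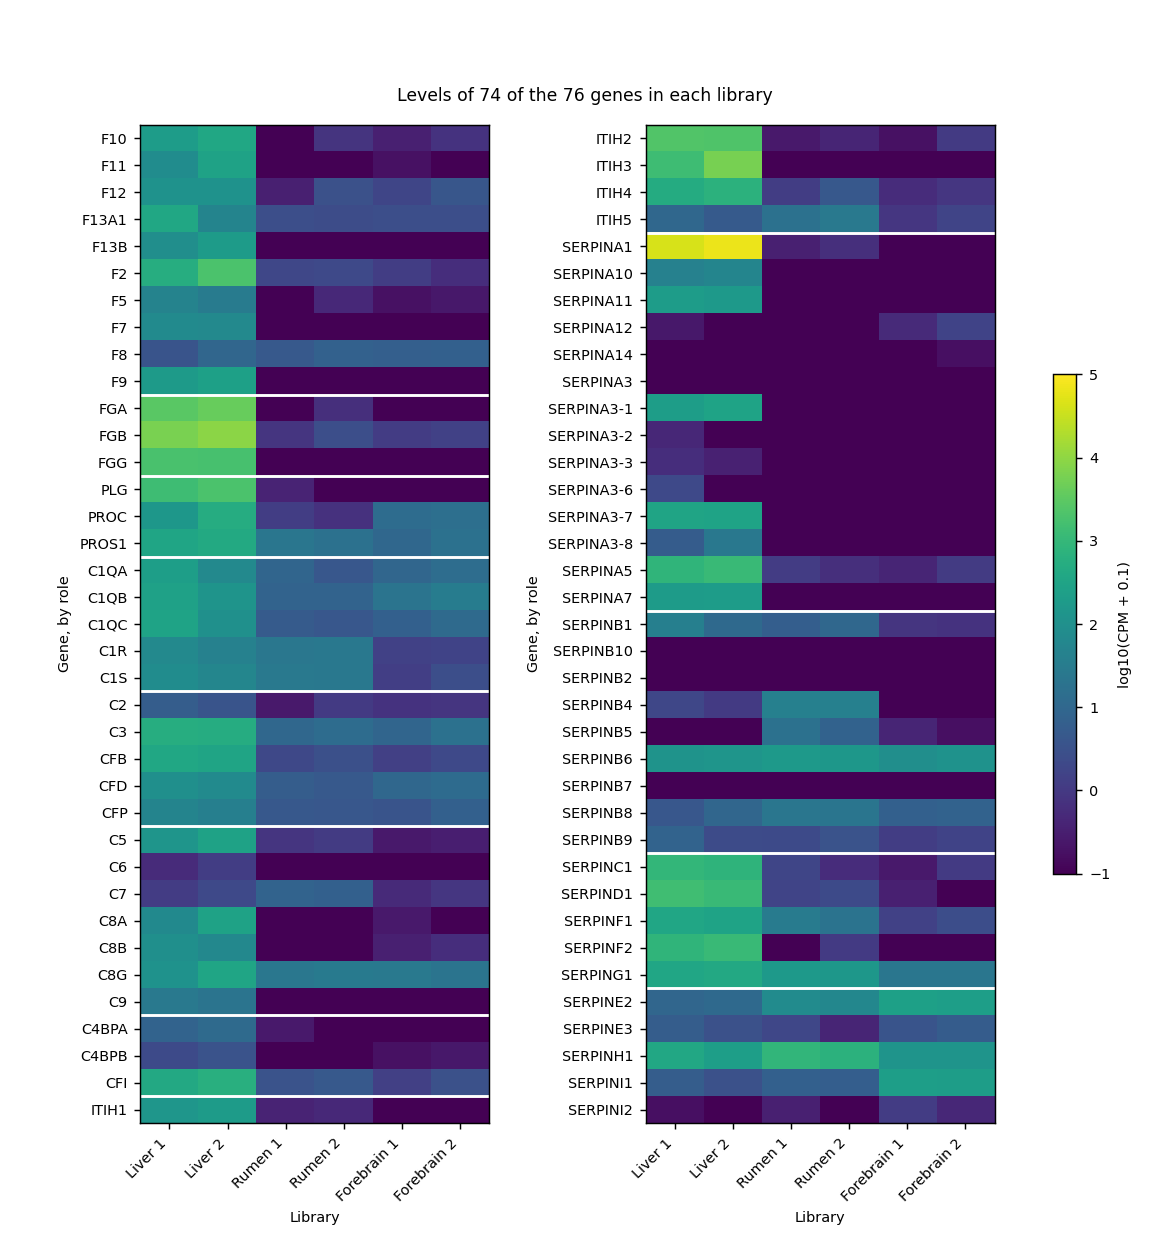
Heat map of log10(CPM + 0.1) for 74 of the 76 genes (vertical axis, grouped by role, white lines between roles) in each of the 6 libraries (horizontal axis). Most genes are bright in both liver columns and dark elsewhere, and the exceptions lie in clades B, E, H and I and in single genes such as C7, F8 and ITIH5.

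Each gene was tested across tissues with edgeR's quasi-likelihood test on counts, and a gene is called where the Benjamini-Hochberg adjusted p over all 11478 tested genes is under 0.05. Of the members, 65 were deep enough to be tested. Of these, 27 reached the filter on low counts only through the liver libraries, so they had to differ, and the counts of calls are descriptions. In coagulation they were F5, F7, F9, F10, F11, F13B, FGA, FGG and PLG. In complement they were C2, C4BPA, C4BPB, C5, C8A, C8B and C9. The others were ITIH1, ITIH2, ITIH3, SERPINF2 and, in clade A, SERPINA1, SERPINA3-1, SERPINA3-7, SERPINA3-8, SERPINA7, SERPINA10 and SERPINA11. In liver over forebrain 56 members were called higher, 2 lower and 7 neither, where 55.3% of all tested genes were called, 29.4% higher and 25.9% lower. In liver over rumen 51 were higher, 6 lower and 8 neither, where 40.3% of all tested genes were called, 20.3% higher and 20.1% lower. In rumen over forebrain 17 were higher, 6 lower and 42 neither, which is 35.4% of the tested members against 39.3% of all tested genes (19.5% higher, 19.9% lower). The 3 comparisons share libraries pairwise and are not independent of each other. Where both libraries of a tissue had no counts, a fold is given as a lower bound against 3 counts over both libraries, equal to 0.103 CPM in liver, 0.116 in rumen and 0.115 in forebrain, and where a tissue had 1 to 3 counts the ratio has a 95% counting interval. Intervals and bounds cover counting error only.

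The median log2 fold change of the tested members was 7.66 in liver over forebrain, or 7.13 with genes that had no counts in a tissue set at their bound, beside 0.14 for all tested genes. In liver over rumen it was 7.16, or 7.03 with bounds, beside 0.06. In rumen over forebrain it was 0.15, or 0.72 with bounds, beside -0.01. Because of the filter, these medians describe the tested members and not the 76.

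**Figure D2:**
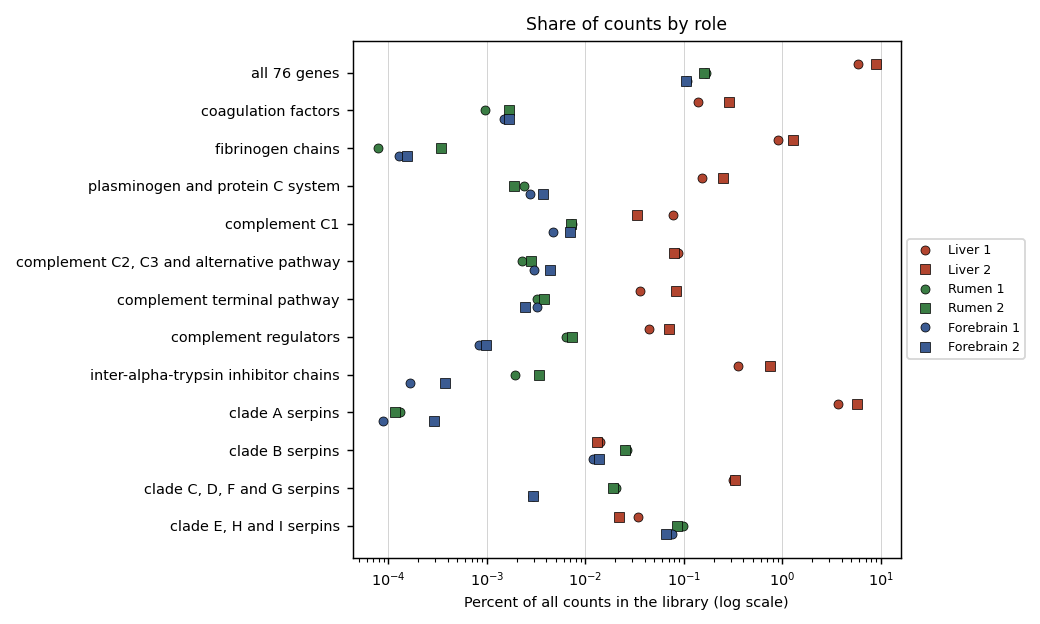
Percent of all counts in a library (horizontal axis, log scale) taken by the 76 genes and by each role (vertical axis), with circles for library 1 and squares for library 2 of liver, rumen and forebrain. Liver lies to the right of rumen and forebrain for every role but clade B and the group of clades E, H and I.

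The coagulation factors were liver genes, with 1 exception. Of the 10, 9 were called higher in liver than in forebrain and the same count higher in liver than in rumen, beside 29.4% and 20.3% of all tested genes. Of those called, F5, F7, F9, F10, F11 and F13B reached the filter on low counts only through liver, so their calls are descriptions. None of the 10 was called in rumen over forebrain by edgeR, with none at an unadjusted p under 0.05 and none by DESeq2. F7, F9 and F13B had no counts in either of these tissues and F11 had 1, so they could not be called here. Lack of a call does not show equal levels in rumen and forebrain. F2, prothrombin, the zymogen of thrombin, had 539.9 and 2051 CPM in liver, 1.76 and 2.03 CPM in rumen and 1.14 and 0.505 CPM in forebrain. Both liver libraries stood far above the other 4 (liver over forebrain, log2 fold change 10.63 ± 0.93, adjusted p = 0.000239; liver over rumen, log2 fold change 9.41 ± 0.87, adjusted p = 0.000555, with the standard error after each ±). F10, the protease that cuts prothrombin, had 203 and 379 CPM in liver, 0 and 0.702 CPM in rumen and 0.244 and 0.650 CPM in forebrain. The groups did not overlap (liver over forebrain, log2 fold change 9.29 ± 0.94, adjusted p = 0.000415; liver over rumen, log2 fold change 9.67 ± 0.97, adjusted p = 0.000688). F9, the factor missing in haemophilia B, had 191 and 262 CPM in liver, no counts in rumen and no counts in forebrain, and was at least 1998-fold higher in liver than in forebrain (adjusted p = 0.00017) and at least 1977-fold higher in liver than in rumen (adjusted p = 0.00035).

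F11, a contact phase protease upstream of F9, had 82.3 and 294 CPM in liver, no counts in rumen and a single count in forebrain. Against forebrain this is a ratio of 5120.4, 95% counting interval 919 to 202281, adjusted p = 0.000719, and against rumen at least 1689-fold higher, adjusted p = 0.00115. F7, which starts the cascade with tissue factor, had 74.3 and 65.5 CPM in liver and no counts in the other tissues. F13B, the carrier subunit of the fibrin-crosslinking factor XIII, had 89.8 and 198 CPM in liver and no counts in the other tissues. F5, the cofactor of activated F10, had 46.9 and 32.0 CPM in liver, 0 and 0.390 CPM in rumen and 0.0813 and 0.144 CPM in forebrain, and F12, the contact factor, 116 and 112 CPM in liver, 0.230 and 2.97 CPM in rumen and 1.71 and 3.82 CPM in forebrain. Both were called higher in liver than in either other tissue. F12 spread widely outside liver, between 3 counts in Rumen 1 and 53 in Forebrain 2.

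F13A1 and F8 departed from this pattern. F13A1, the catalytic subunit of factor XIII, which megakaryocytes and macrophages make, had 374 and 50.0 CPM in liver, 2.68 and 2.42 CPM in rumen and 2.68 and 2.67 CPM in forebrain. It was called higher in liver than in forebrain (log2 fold change 6.30 ± 1.00, adjusted p = 0.00258) and than in rumen (log2 fold change 6.37 ± 1.01, adjusted p = 0.00376), but Liver 1 stood well above Liver 2. F8, the cofactor of F9 whose main source is endothelium, had 3.42 and 9.70 CPM in liver, 4.67 and 7.18 CPM in rumen and 6.42 and 6.93 CPM in forebrain. The groups overlapped in each comparison, and none was called (liver over forebrain, log2 fold change -0.02 ± 0.63, adjusted p = 0.982; liver over rumen, log2 fold change 0.15 ± 0.63, adjusted p = 0.873; rumen over forebrain, log2 fold change -0.17 ± 0.63, adjusted p = 0.855). In the RefSeq gene table F8 overlaps FUNDC2 and F8A1, and the strand setting of the counting is not given, so reads of these genes cannot be told apart. The same holds for F12 and PFN3, CFD and MED16, SERPIND1 and PI4KA, SERPINE3 and INTS6, and SERPINF1 and SMYD4.

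The fibrinogen chains were high in liver and close to absent elsewhere. Among them FGA and FGG reached the filter on low counts only through liver, so their calls are descriptions. FGB, the beta chain, had 6278 and 9189 CPM in liver, 0.765 and 2.65 CPM in rumen and 1.06 and 1.37 CPM in forebrain (liver over forebrain, log2 fold change 12.62 ± 0.75, adjusted p = 8e-05; liver over rumen, log2 fold change 12.14 ± 0.74, adjusted p = 0.000227). FGA, the alpha chain, had 2881 and 4117 CPM in liver, 0 and 0.546 CPM in rumen and no counts in forebrain. All of its counts in rumen came from Rumen 2, and it was at least 30903-fold higher in liver than in forebrain (adjusted p = 0.000204). FGG, the gamma chain, had 1939 and 1811 CPM in liver, no counts in rumen and no counts in forebrain, and was at least 16308-fold higher in liver than in forebrain (adjusted p = 8.88e-05) and at least 16139-fold higher in liver than in rumen (adjusted p = 0.000227). The protein holds the 3 chains in equal number. The log2 ratio of Liver 1 to Liver 2, which has no test, was -0.55 for FGB, -0.51 for FGA and 0.10 for FGG.

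Of the plasminogen and protein C genes, PROC and PROS1 were also found outside liver. The third, PLG, reached the filter on low counts only through liver, so its calls are descriptions. PLG, the zymogen of the fibrin-dissolving protease plasmin, had 1396 and 2008 CPM in liver, 0.306 and 0 CPM in rumen and no counts in forebrain, and was at least 15036-fold higher in liver than in forebrain (adjusted p = 0.000137). PROC, the vitamin K-dependent zymogen of the anticoagulant protease that inactivates F5 and F8, had 152 and 520.0 CPM in liver, 1.15 and 0.624 CPM in rumen and 13.3 and 15.2 CPM in forebrain. Liver was highest and rumen lowest with no overlap between any tissues (liver over forebrain, log2 fold change 4.56 ± 0.63, adjusted p = 0.00145; liver over rumen, log2 fold change 8.55 ± 0.79, adjusted p = 0.00056; rumen over forebrain, log2 fold change -3.99 ± 0.70, adjusted p = 0.00596). PROC had 15 and 8 counts in rumen and 163 and 211 counts in forebrain, and the call of rumen against forebrain was lost without Rumen 2. PROS1, protein S, its cofactor, had 341 and 438 CPM in liver, 22.2 and 17.0 CPM in rumen and 9.76 and 17.6 CPM in forebrain. It was called higher in liver than in forebrain (log2 fold change 4.83 ± 0.39, adjusted p = 0.00018) and in rumen (log2 fold change 4.31 ± 0.38, adjusted p = 0.000472), while rumen and forebrain overlapped (log2 fold change 0.52 ± 0.34, adjusted p = 0.269).

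Complement C1 joins the recognition protein C1q, whose 3 chains C1QA, C1QB and C1QC are macrophage and microglia products, to the proteases C1R and C1S. All 5 were called higher in liver than in forebrain and in rumen, beside 29.4% and 20.3% of all tested genes. The chains and the proteases parted between rumen and forebrain. C1QA had 231 and 68.1 CPM in liver, 8.80 and 4.14 CPM in rumen and 9.35 and 13.9 CPM in forebrain, and C1QB had 276 and 128 CPM in liver, 8.03 and 7.88 CPM in rumen and 20.5 and 32.1 CPM in forebrain. C1QC had 305 and 100.0 CPM in liver, 5.20 and 4.14 CPM in rumen and 6.75 and 11.98 CPM in forebrain. For all 3 chains both forebrain libraries lay above both rumen libraries, and C1QB was the one called in rumen over forebrain (log2 fold change -1.72 ± 0.43, adjusted p = 0.0207), with C1QA (log2 fold change -0.85 ± 0.64, adjusted p = 0.333) and C1QC (log2 fold change -1.005 ± 0.58, adjusted p = 0.211) not called. The C1QB call was lost without any 1 of the rumen or forebrain libraries. The summed level of 9 macrophage and Kupffer cell markers was 355 and 252 CPM in liver, 38.2 and 54.2 CPM in rumen and 45.9 and 66.7 CPM in forebrain. They ran in both directions in rumen over forebrain, with 2 called higher (TIMD4 and CD163) and 2 lower (TYROBP and CSF1R). TIMD4 was at 0 in both forebrain libraries. The part of these markers in the C1q values was not tested.

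The proteases were instead low in forebrain. C1R had 67.3 and 42.5 CPM in liver, 23.7 and 25.8 CPM in rumen and 1.38 and 1.52 CPM in forebrain and C1S had 84.8 and 56.3 CPM in liver, 26.3 and 25.2 CPM in rumen and 1.22 and 2.67 CPM in forebrain. Neither overlapped between any tissues. Rumen exceeded forebrain for C1R (log2 fold change 4.09 ± 0.37, adjusted p = 0.000596) and for C1S (log2 fold change 3.71 ± 0.45, adjusted p = 0.00152), and both calls held without any 1 library. Liver exceeded rumen by less (C1R, log2 fold change 1.15 ± 0.31, adjusted p = 0.0278; C1S, log2 fold change 1.45 ± 0.39, adjusted p = 0.0267). These last calls were lost without either rumen library, and for C1R also without either forebrain library.

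C3 and the alternative pathway were liver-high throughout. All 5 genes were called higher in liver than in forebrain and in rumen, beside 29.4% and 20.3% of all tested genes. C3, the component on which all routes converge, had 544 and 517 CPM in liver, 10.1 and 13.2 CPM in rumen and 9.19 and 17.2 CPM in forebrain (liver over forebrain, log2 fold change 5.32 ± 0.39, adjusted p = 0.000135; liver over rumen, log2 fold change 5.51 ± 0.39, adjusted p = 0.000285). CFB, which supplies the protease of the alternative pathway convertase, had 366 and 314 CPM in liver, 1.91 and 2.81 CPM in rumen and 1.30 and 2.02 CPM in forebrain. No liver library overlapped with the others for either gene (CFB in liver over forebrain, log2 fold change 7.66 ± 0.38, adjusted p = 6.1e-05; liver over rumen, log2 fold change 7.16 ± 0.37, adjusted p = 0.000222). CFD, the protease that cuts CFB, had 96.1 and 72.4 CPM in liver, 5.74 and 4.68 CPM in rumen and 10.2 and 12.3 CPM in forebrain. It was called in all 3 comparisons, lowest in rumen (rumen over forebrain, log2 fold change -1.11 ± 0.29, adjusted p = 0.0252), a call lost without any 1 of the rumen or forebrain libraries. CFP, properdin, which stabilises that convertase, had 50.1 and 38.3 CPM in liver, 4.36 and 4.21 CPM in rumen and 3.58 and 6.78 CPM in forebrain. C2, which provides the protease of the classical pathway convertase, had 77 and 56 counts in liver, 2 and 12 counts in rumen and 8 and 10 counts in forebrain. This gene reached the filter on low counts only through liver, so its calls are descriptions. It was called at these low counts (liver over forebrain, log2 fold change 2.75 ± 0.95, adjusted p = 0.0456; liver over rumen, log2 fold change 3.08 ± 0.97, adjusted p = 0.0437). The first call was lost without Liver 1 or either forebrain library, the second without Liver 1, Rumen 1 or either forebrain library, and both under a replicate block and with no filter on low counts.

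The terminal components divided into liver genes and C7. Of the liver genes, C5, C8A, C8B and C9 reached the filter on low counts only through liver, so their calls are descriptions. C5, whose cleavage starts the pore, had 131 and 279.5 CPM in liver, 0.765 and 1.01 CPM in rumen and 0.163 and 0.217 CPM in forebrain (liver over forebrain, log2 fold change 10.00 ± 0.62, adjusted p = 8.5e-05; liver over rumen, log2 fold change 7.84 ± 0.53, adjusted p = 0.000258). C8 has 3 chains, each with its own gene. C8A, the alpha chain, had 935 and 4418 counts in liver, none in rumen and 2 and 0 counts in forebrain. C8B, the beta chain, had 1309 and 1005 counts in liver, none in rumen and 3 and 7 counts in forebrain. C8G, the gamma chain, a lipocalin, had 116 and 340.4 CPM in liver, 23.5 and 27.5 CPM in rumen and 26.1 and 19.9 CPM in forebrain. Unlike the other chains, C8G had at least 276 counts in every library, and rumen and forebrain overlapped (liver over forebrain, log2 fold change 3.31 ± 0.53, adjusted p = 0.00262; liver over rumen, log2 fold change 3.16 ± 0.53, adjusted p = 0.00459, a call lost without Rumen 1). C9, the pore-forming unit, had 27.0 and 20.2 CPM in liver and no counts elsewhere, at least 204-fold higher in liver than in forebrain and at least 202-fold higher in liver than in rumen. C6 had 6 and 18 counts in liver and none elsewhere, too few to be tested.

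C7, which anchors the growing complex in the membrane, was the one terminal component with its highest level in rumen, at 1.04 and 1.99 CPM in liver, 7.88 and 6.63 CPM in rumen and 0.407 and 0.794 CPM in forebrain. Both rumen libraries exceeded both of each other tissue (liver over rumen, log2 fold change -2.25 ± 0.69, adjusted p = 0.0406; rumen over forebrain, log2 fold change 3.57 ± 0.75, adjusted p = 0.0111). Each of these calls was lost without any 1 of the rumen or forebrain libraries, and the call against liver also under a replicate block, while the groups did not overlap.

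Among the regulators, CFI, the protease that cuts C3b, had 416 and 619 CPM in liver, 3.37 and 4.53 CPM in rumen and 1.30 and 3.03 CPM in forebrain. It was called in liver over forebrain (log2 fold change 7.88 ± 0.52, adjusted p = 9.79e-05) and over rumen (log2 fold change 7.03 ± 0.50, adjusted p = 0.000285), with rumen over forebrain not called (log2 fold change 0.85 ± 0.45, adjusted p = 0.177). C4BPA and C4BPB encode the chains of the C4b-binding protein, with 105 and 186 counts and 28 and 53 counts in liver and no more than 3 in all in any other tissue. They reached the filter on low counts only through liver, so their calls are descriptions. Both were called against both other tissues, though C4BPB against forebrain was lost without either forebrain library and under a replicate block. These genes overlap each other in the RefSeq table, so their reads cannot be told apart either.

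The inter-alpha-trypsin inhibitor heavy chains are secreted proteins that become linked to hyaluronan, and 4 of the 5 were liver genes. Of these 4, ITIH1, ITIH2 and ITIH3 reached the filter on low counts only through liver, so their calls against liver are descriptions. ITIH2 had 2327 and 2177 CPM in liver, 0.153 and 0.312 CPM in rumen and 0.0813 and 0.938 CPM in forebrain (liver over forebrain, log2 fold change 12.04 ± 0.78, adjusted p = 9.35e-05; liver over rumen, log2 fold change 13.19 ± 0.83, adjusted p = 0.000227). ITIH3 had 1351 and 5735 CPM in liver and no counts in the other tissues. This is at least 32298-fold higher in liver than in forebrain and at least 31963-fold higher than in rumen. ITIH4 had 499 and 703 CPM in liver, 1.15 and 4.29 CPM in rumen and 0.488 and 0.794 CPM in forebrain. Liver was separate from the others for each (ITIH4 in liver over forebrain, log2 fold change 9.84 ± 0.76, adjusted p = 0.000155; liver over rumen, log2 fold change 7.78 ± 0.68, adjusted p = 0.000455). ITIH1 had 139 and 201 CPM in liver, 0.306 and 0.390 CPM in rumen and no counts in forebrain. ITIH5, the chain with its highest mean outside liver, had 9.75 and 5.01 CPM in liver, 17.3 and 26.5 CPM in rumen and 0.813 and 1.59 CPM in forebrain. It was called higher in rumen than in forebrain (log2 fold change 4.17 ± 0.63, adjusted p = 0.00339) and in liver than in forebrain (log2 fold change 2.60 ± 0.60, adjusted p = 0.0108, lost without Forebrain 1), while liver over rumen gave log2 fold change -1.57 ± 0.55, adjusted p = 0.0618. That difference was not called although the groups did not overlap, and DESeq2 called it lower.

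Clade A, the clade of alpha-1-antitrypsin, held genes found almost entirely in liver. Of its 14 members 8 were tested. Beside 29.4% of all tested genes over forebrain and 20.3% over rumen, all 8 were called higher in liver. All of these but SERPINA5 reached the filter on low counts only through liver, so their calls are descriptions. SERPINA1 had 42895 and 65702 CPM in liver, 0.230 and 0.546 CPM in rumen and no counts in forebrain. Its level in liver was at least 480704-fold above forebrain (adjusted p = 7.25e-05), and its log2 fold change over rumen was 17.07 ± 0.77 (adjusted p = 0.000227). SERPINA5, protein C inhibitor, had 849 and 1145 CPM in liver, 1.07 and 0.546 CPM in rumen and 0.325 and 1.01 CPM in forebrain (liver over forebrain, log2 fold change 10.50 ± 0.60, adjusted p = 7.08e-05; liver over rumen, log2 fold change 10.25 ± 0.59, adjusted p = 0.000227). SERPINA7, thyroxine-binding globulin, a hormone carrier without inhibitor activity, had 195 and 202 CPM in liver and no counts elsewhere. SERPINA10, the inhibitor that acts on F10 with protein Z, had 43.2 and 52.8 CPM in liver, and SERPINA11 211 and 180.2 CPM, again with no counts in rumen or forebrain.

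Cattle carry several SERPINA3 copies, relatives of human antichymotrypsin, that were listed under separate symbols. SERPINA3-7 had 323 and 295 CPM in liver, SERPINA3-1 219.5 and 301 CPM and SERPINA3-8 5.43 and 25.2 CPM, all with no counts in rumen or forebrain. SERPINA3-8 was not called by DESeq2. SERPINA3-6 had 27 counts in Liver 1 and none in Liver 2, SERPINA3-3 had 7 and 4 counts in liver, SERPINA3-2 had 5 counts in Liver 1 alone, and SERPINA3 itself had none. How reads shared by near-identical copies were counted is not given, so the split among these symbols is uncertain. Of the other untested clade members, SERPINA12, vaspin, had 2 counts in Liver 1, none in rumen and 5 and 21 counts in forebrain, and SERPINA14, a uterine milk protein, had 1 count in Forebrain 2.

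The serpins of clades C, D, F and G were all called higher in liver than in forebrain and in rumen, beside 29.4% and 20.3% of all tested genes. Among them SERPINF2 reached the filter on low counts only through liver, so its calls are descriptions. SERPINC1, antithrombin, had 924 and 819.7 CPM in liver, 1.68 and 0.468 CPM in rumen and 0.163 and 0.938 CPM in forebrain (liver over forebrain, log2 fold change 10.57 ± 0.81, adjusted p = 0.000154; liver over rumen, log2 fold change 9.65 ± 0.77, adjusted p = 0.000354). SERPIND1, heparin cofactor II, had 1443 and 1151 CPM in liver, 1.61 and 2.11 CPM in rumen and 0.244 and 0 CPM in forebrain (liver over rumen, log2 fold change 9.44 ± 0.55, adjusted p = 0.000227). SERPINF2, alpha-2-antiplasmin, the plasmin inhibitor, had 858 and 1191 CPM in liver, 0 and 0.936 CPM in rumen and no counts in forebrain, and was at least 9039-fold higher in liver than in forebrain (adjusted p = 0.000459). The groups did not overlap for any of these.

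SERPINF1 and SERPING1 had graded levels. SERPING1, the C1 inhibitor that also blocks the contact system, had 351 and 429 CPM in liver, 167 and 153 CPM in rumen and 22.8 and 22.4 CPM in forebrain. Each tissue was separate from the next (liver over forebrain, log2 fold change 4.11 ± 0.24, adjusted p = 7.3e-05; liver over rumen, log2 fold change 1.29 ± 0.21, adjusted p = 0.00445, lost without Rumen 2; rumen over forebrain, log2 fold change 2.82 ± 0.23, adjusted p = 0.000433). SERPINF1, a secreted serpin without inhibitor activity that restrains vessel growth, had 350.3 and 299.9 CPM in liver, 30.8 and 19.2 CPM in rumen and 1.38 and 2.53 CPM in forebrain, in the same order (liver over forebrain, log2 fold change 7.36 ± 0.45, adjusted p = 8.69e-05; liver over rumen, log2 fold change 3.70 ± 0.37, adjusted p = 0.000696; rumen over forebrain, log2 fold change 3.66 ± 0.40, adjusted p = 0.00104).

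Clade B serpins act mostly inside cells. Of the 9 members 6 were tested, of which SERPINB4, SERPINB5, SERPINB6 and SERPINB8 had their highest mean in rumen and SERPINB1 and SERPINB9 in liver. None was called higher in liver than in rumen by edgeR or by DESeq2, with 4 at an unadjusted p under 0.05 in either direction. In that comparison 3 were called lower, beside 20.3% of all tested genes higher and 20.1% lower. Between rumen and forebrain 5 were called higher in rumen, beside 19.5% of all tested genes. SERPINB4, a relative of the human squamous cell carcinoma antigens of stratified epithelium, had 1.79 and 0.963 CPM in liver, 40.7 and 41.4 CPM in rumen and no counts in forebrain. The rumen libraries were far above liver (liver over rumen, log2 fold change -4.90 ± 0.51, adjusted p = 0.00145) and at least 358-fold above forebrain (adjusted p = 0.000579). SERPINB5, maspin, an epithelial serpin, had no counts in liver, 17.2 and 7.65 CPM in rumen and 0.325 and 0.0722 CPM in forebrain. Liver was at least 121-fold lower than rumen (adjusted p = 0.00362), and rumen exceeded forebrain (log2 fold change 5.93 ± 1.02, adjusted p = 0.00781, lost without Rumen 1 or Forebrain 2). The 8 stratified squamous epithelium markers summed to 85.7 and 183 CPM in liver, 14257 and 11618 CPM in rumen and 7.81 and 6.71 CPM in forebrain. PERP alone had 85.5 and 172 CPM in liver. TP63 and IVL were at 0 in every liver and forebrain library, and KRT5, KRT15 and KRT4 also in Liver 1. The part of these markers in the SERPINB4 and SERPINB5 values was not tested.

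SERPINB6, an inhibitor of several intracellular proteases, was at similar depth in every library, with 121 and 132 CPM in liver, 175 and 153 CPM in rumen and 89.9 and 112 CPM in forebrain. It was called in rumen over forebrain (log2 fold change 0.70 ± 0.22, adjusted p = 0.0457), a call that was lost with RLE scaling, under a replicate block, with no filter and without any 1 of the rumen or forebrain libraries. SERPINB8, an inhibitor of furin-like proteases in vitro, had 4.09 and 9.44 CPM in liver, 22.2 and 21.9 CPM in rumen and 6.99 and 7.72 CPM in forebrain. Rumen was above both other tissues (liver over rumen, log2 fold change -1.70 ± 0.49, adjusted p = 0.0334; rumen over forebrain, log2 fold change 1.58 ± 0.49, adjusted p = 0.0427), and both calls were lost without any 1 of the rumen or forebrain libraries, that of rumen over forebrain also under a replicate block. SERPINB1, the leukocyte elastase inhibitor, had 38.2 and 11.2 CPM in liver, 6.20 and 9.83 CPM in rumen and 0.732 and 0.650 CPM in forebrain. It was called against forebrain in liver (log2 fold change 5.14 ± 0.78, adjusted p = 0.00211) and in rumen (log2 fold change 3.52 ± 0.75, adjusted p = 0.0116, lost without Rumen 2 or either forebrain library). Liver over rumen was not called (log2 fold change 1.62, adjusted p = 0.0891) except without Liver 2. SERPINB9, the granzyme B inhibitor, had 8.04 and 2.25 CPM in liver, 2.14 and 3.28 CPM in rumen and 1.14 and 1.52 CPM in forebrain, and was called in no comparison with all libraries in. Clade B genes are similar in sequence, and reads they share are uncertain in the same way as for SERPINA3.

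Of the 7 members with their highest mean in forebrain, SERPINE2, SERPINE3, SERPINI1 and SERPINI2 belong to clades E and I, and F8, SERPINA12 and SERPINA14 do not. SERPINI1, neuroserpin, an inhibitor of tissue plasminogen activator in neurons, had 5.88 and 3.02 CPM in liver, 6.96 and 6.24 CPM in rumen and 236 and 219.6 CPM in forebrain. Both forebrain libraries exceeded all others (liver over forebrain, log2 fold change -5.68 ± 0.39, adjusted p = 0.00011; rumen over forebrain, log2 fold change -5.11 ± 0.38, adjusted p = 0.000371), while liver over rumen was not called (log2 fold change -0.57 ± 0.34, adjusted p = 0.225). SERPINE2, protease nexin 1, a thrombin inhibitor also called glia-derived nexin, had 9.23 and 11.3 CPM in liver, 78.1 and 61.3 CPM in rumen and 264 and 230.4 CPM in forebrain. Its order was liver below rumen and rumen below forebrain (liver over forebrain, log2 fold change -4.59 ± 0.28, adjusted p = 8.27e-05; liver over rumen, log2 fold change -2.76 ± 0.26, adjusted p = 0.00056; rumen over forebrain, log2 fold change -1.83 ± 0.24, adjusted p = 0.0022). These calls of SERPINI1 and SERPINE2 held without any 1 library. The 10 neuron markers summed to 82.7 and 64.1 CPM in liver, 379 and 391 CPM in rumen and 12118 and 11555 CPM in forebrain, with NEUROD6, SLC17A6 and GAD1 at 0 in every liver and rumen library, and 8 radial glia and astrocyte markers to 192 and 136 CPM in liver, 1420.2 and 1426 CPM in rumen and 1854 and 2413 CPM in forebrain, with PAX6 at 0 in every liver and rumen library. The glial sum hides that 6 of its 8 genes were called lower in rumen than in forebrain and 1 higher. Their median log2 fold change in rumen over forebrain was -4.65. The part of either list in the SERPINI1 and SERPINE2 values was not tested.

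SERPINH1, HSP47, a collagen chaperone of the endoplasmic reticulum, had 387 and 232 CPM in liver, 867 and 721 CPM in rumen and 126 and 131 CPM in forebrain. The tissues were separate and all 3 comparisons were called (liver over forebrain, log2 fold change 1.27 ± 0.29, adjusted p = 0.0112; liver over rumen, log2 fold change -1.36 ± 0.29, adjusted p = 0.0125; rumen over forebrain, log2 fold change 2.63 ± 0.31, adjusted p = 0.00135). The call of liver over forebrain was lost without either forebrain library, and that of liver over rumen without either rumen library. Markers of stellate cells, pericytes and fibroblasts, 9 genes that include the collagens COL1A1 and COL3A1, summed to 1065 and 777 CPM in liver, 13681 and 14302 CPM in rumen and 174 and 213 CPM in forebrain. COL3A1 alone had 8379 and 8768 CPM in rumen. In liver over rumen 6 of the 9 were called lower and 2, PDGFRB and LRAT, higher. The part of these markers in the SERPINH1 values was not tested. SERPINE3 had 5.81 and 3.02 CPM in liver, 1.84 and 0.312 CPM in rumen and 3.50 and 5.56 CPM in forebrain and was called in no comparison with all libraries in. SERPINI2 had 1 count in liver, 3 in rumen and 13 and 5 counts in forebrain, too few to be tested.

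**Figure D3:**
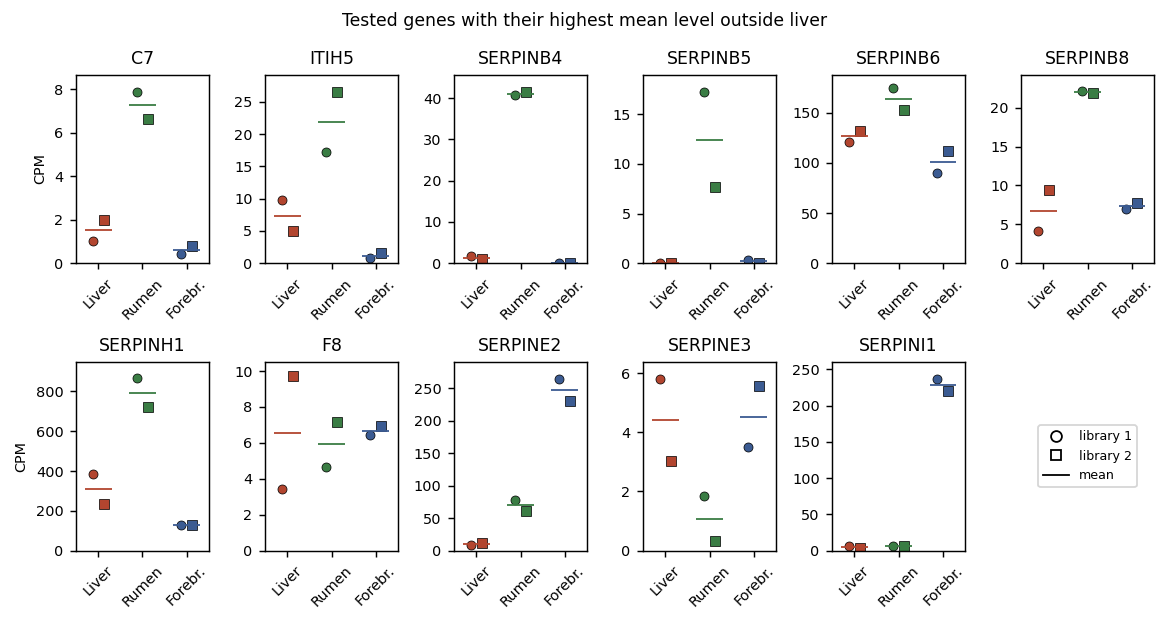
Levels in CPM (vertical axes, linear from 0, scaled per gene) of the 11 tested genes whose mean was highest outside liver, by tissue (horizontal axes), with circles for library 1, squares for library 2 and a line at the mean. C7, ITIH5, SERPINB4, SERPINB5, SERPINB8 and SERPINH1 peak in both rumen libraries, SERPINE2 and SERPINI1 in both forebrain libraries, and F8 overlaps between all tissues.

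Rumen and forebrain, where the members are scarce, differed in 23 of the 65 tested, which is 35.4% of them, beside 39.3% of all tested genes. The 17 called higher in rumen included SERPINB1, B4, B5, B6 and B8, SERPINA1, SERPIND1, SERPINF1, SERPING1, SERPINH1, C1R, C1S, C5, C7, ITIH1 and ITIH5. The 6 called lower were C1QB, C8B, CFD, PROC, SERPINE2 and SERPINI1. Leaving out Rumen 2 or Forebrain 2 reduced the 17 to 9 and leaving out Forebrain 1 to 10, while leaving out Rumen 1, Rumen 2 or Forebrain 2 reduced the 6 to 3 and leaving out Liver 2 raised them to 10.

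Several of these calls rest on a handful of reads. SERPINA1 had 3 and 7 counts in rumen and none in forebrain, and ITIH1 had 4 and 5 counts in rumen and none in forebrain. C5 had 10 and 13 counts in rumen and 2 and 3 counts in forebrain, and C8B had none in rumen and 3 and 7 counts in forebrain. These 4 are the called genes that reached the filter only through liver, and each call was lost on leaving out a library, that of SERPINA1 also under a replicate block. SERPIND1 had 21 and 27 counts in rumen and 3 and 0 counts in forebrain, a ratio of 16.2, 95% counting interval 5.21 to 81.1, adjusted p = 0.00757, and was lost without Rumen 2. Beside them, the hepatocyte marker sum was 179 and 149.6 CPM in rumen and 194 and 282 CPM in forebrain, of which APOA1 and RBP4 gave most, with APOA2 at 0 in all 4 libraries. The markers ran in both directions, with AHSG and TAT among those called higher in rumen than in forebrain and ALB, TF and TTR among those called lower. AHSG had 0.842 and 2.34 CPM in rumen and no counts in forebrain, and TAT 9.49 and 10.1 CPM in rumen and 0.163 and 0.144 CPM in forebrain. ALB had 0.383 and 1.01 CPM in rumen and 15.4 and 10.2 CPM in forebrain. The part of these markers in the low values was not tested.

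**Figure D4:**
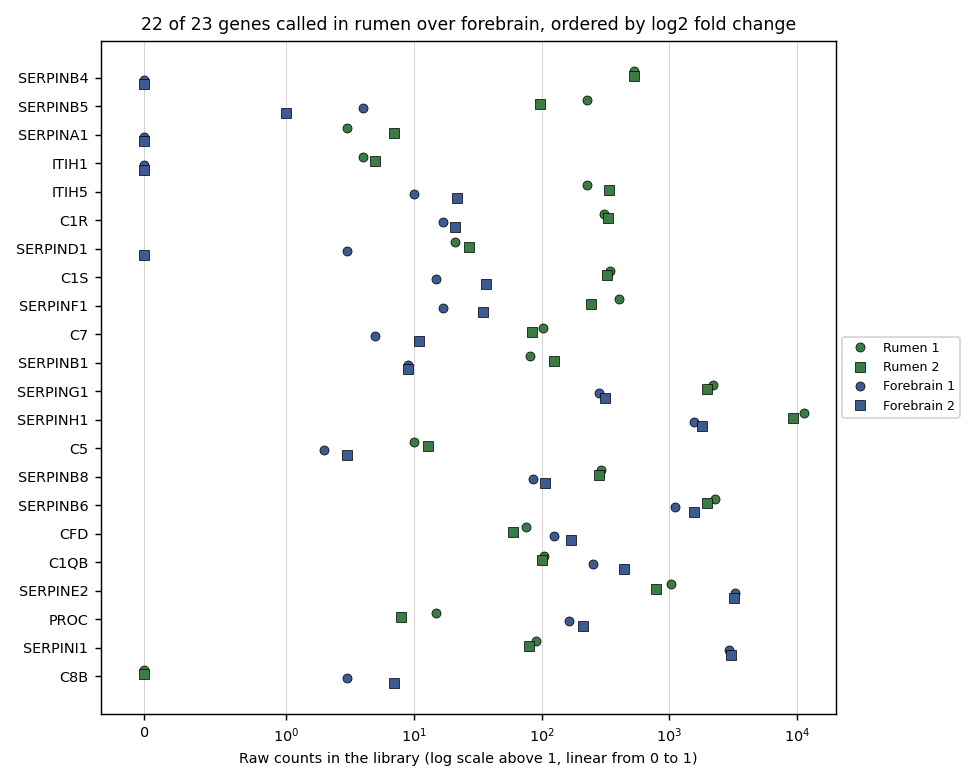
Raw counts (horizontal axis, log scale above 1 and linear from 0 to 1) of 22 of the 23 genes called in rumen over forebrain (vertical axis, by log2 fold change), with circles for library 1 and squares for library 2. Counts run between 0 and 11325 in Rumen 1 for SERPINH1, and SERPINA1, ITIH1, C5 and C8B have at most 13 counts in any library shown.

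The liver libraries differed in how much of each member they held. Over the 61 members that averaged 50 counts or more in liver, the log2 ratio of Liver 1 to Liver 2 had an SD of 1.03, beside 1.11 over all 9062 genes at that depth. For rumen the same SD was 0.562 over 26 members and 0.372 over all genes, and for forebrain 0.408 over 18 members and 0.373 over all genes. The liver pair was thus more spread than the other pairs for genes in general. The pair has 1 library each, so its differences have no replicate check and no test.

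More than 2-fold higher in Liver 1 were 6 members, which is 9.84% of the 61, beside 14.9% of all genes. They were F13A1, SERPINB9, SERPINB1, C1QA, C1QC and C1QB, genes known from macrophages, platelets and other leukocytes. F13A1 had 374 and 50.0 CPM (log2 ratio 2.90), SERPINB1 38.2 and 11.2 CPM (1.76) and SERPINB9 8.04 and 2.25 CPM (1.77). All 5 C1 genes were higher in Liver 1, with log2 ratios of 0.59 to 1.76. The marker sums in Liver 1 and Liver 2 were 355 and 252 CPM for macrophages and Kupffer cells, 2162 and 1298 CPM for megakaryocytes and platelets and 152977 and 60346 CPM for 16 erythroid genes. They were also higher in Liver 1 for endothelium (1430.2 and 855 CPM), stellate cells, pericytes and fibroblasts (1065 and 777 CPM) and granulocytes and mast cells (122 and 40.6 CPM). Single markers ran the other way, such as ITGA2B of platelets with 227 and 488 CPM and AIF1 of macrophages with 15.6 and 19.0 CPM. The part of these cells in the ratios was not tested.

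More than 2-fold higher in Liver 2 were 11 members, which is 18% of the 61, beside 15% of all genes. They were SERPINA3-8, ITIH3, C8A, F2, F11, PROC, C8G, F8, SERPINB8, F13B and C5. ITIH3 had 1351 and 5735 CPM (log2 ratio -2.09), C8A 69.6 and 284 CPM (-2.03) and F2 539.9 and 2051 CPM (-1.93). F11 had 82.3 and 294 CPM (-1.83) and SERPINA3-8 5.43 and 25.2 CPM (-2.18). Other plasma proteins were near equal in both, among them C3 (0.07), F12 (0.04), ITIH2 (0.10), FGG (0.10) and SERPINC1 (0.17). The hepatocyte markers summed to 198355 and 136882 CPM in Liver 1 and Liver 2, with 8 of the 13 higher in Liver 1, among them AHSG, ALB and AFP, and 5 higher in Liver 2, which were APOA1, APOA2, APOH, HPX and TTR. The median log2 ratio of the 61 members was -0.06 with the scaling used and -0.59 when each library was scaled to its hepatocyte marker counts, and 8 haemoglobin genes took 11.5% and 4.46% of the counts.

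Some fold changes of called members hinge on 1 library. Only called fold changes that are neither bounds nor ratios with a counting interval were taken here. Leaving out 1 library moved those of 18 of 34 genes in liver over forebrain, 20 of 39 in liver over rumen and 4 of 18 in rumen over forebrain by more than 1.5 times. Without Liver 1, the log2 fold change of F13A1 was 4.22 over forebrain and 4.29 over rumen, and without Liver 2 it was 7.12 and 7.19. That of F2 was 11.30 over forebrain and 10.07 over rumen without Liver 1, and 9.37 and 8.15 without Liver 2. PROC was 5.18 over forebrain and 9.18 over rumen without Liver 1, and 3.41 and 7.41 without Liver 2. C1QA, C1QC and C1QB were lower without Liver 1 (2.54, 3.41 and 2.28 over forebrain, and 3.39, 4.42 and 4.01 over rumen), as was SERPINB1 over forebrain. C8G was lower without Liver 2, at 2.33 over forebrain and 2.18 over rumen. C5 was 9.35 over forebrain and 7.19 over rumen without Liver 2, and SERPINB8 in liver over rumen was -2.43 without it. Each of these calls held without Liver 1 and without Liver 2. In liver over rumen, the genes that moved without Rumen 1 or Rumen 2 were C1QA, C2, F10, F12, F5, FGA, FGB, ITIH4, PLG, SERPINA1, SERPINC1 and SERPINF2. Among them F10, F5, FGA and SERPINF2 had no counts in Rumen 1, and PLG none in Rumen 2. F12 was 5.26 without Rumen 1 and 8.87 without Rumen 2, and SERPINC1 was 10.83 and 8.98. In liver over forebrain, the genes that moved without Forebrain 1 or Forebrain 2 included C1S, C8B, CFI, F10, F12, F2, ITIH2, SERPINA5 and SERPINC1, with ITIH2 at 11.21 without Forebrain 1 and 14.60 without Forebrain 2. In rumen over forebrain, C1S was 4.42, C7 4.16 and ITIH5 4.77 without Forebrain 2, and SERPINB5 ranged up to 7.28 without Forebrain 1 and down to 5.22 without Rumen 1.

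**Figure D5:**
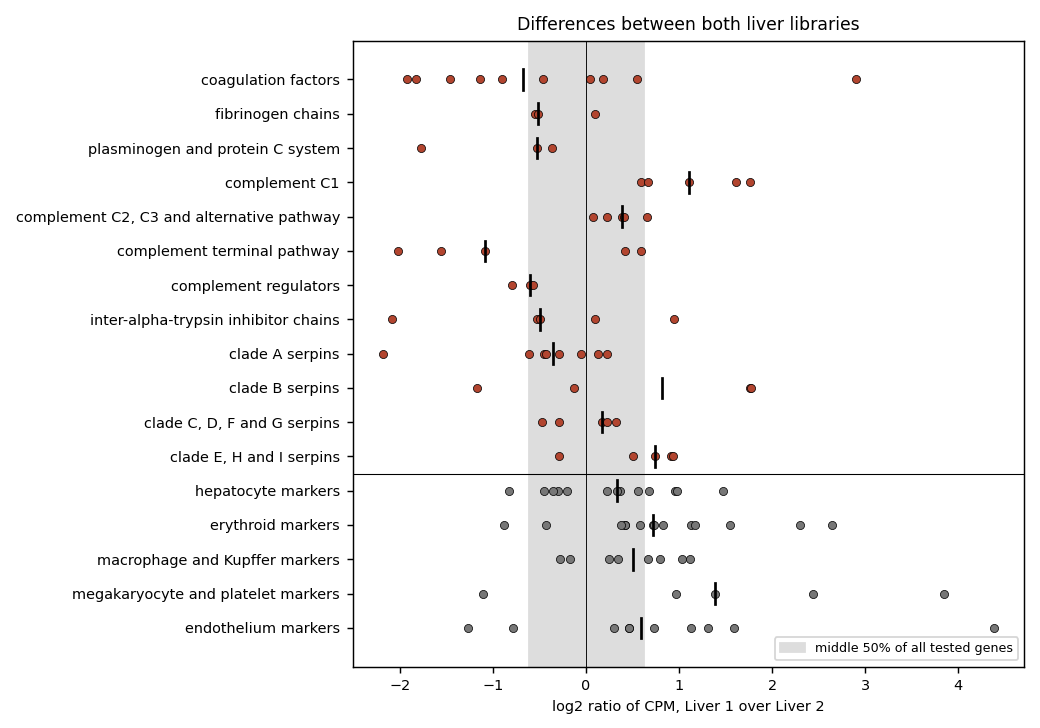
Log2 ratio of CPM in Liver 1 over Liver 2 (horizontal axis) for members with a mean liver count of at least 50, by role (red points, vertical axis), and for marker genes (grey points), with a black bar at each median and a grey band over the middle 50% of all tested genes. The C1 genes all lie right of 0, the regulators and the plasminogen and protein C genes all lie left, and F13A1 is the point farthest right among members at 2.90.

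Members that are neighbours in the genome did not always share these values. By symbol, 73 of the 76 were found in the RefSeq gene table of assembly ARS-UCD2.0, and 33 of them lie in 13 runs of adjacent protein-coding genes. In the run ITIH4, ITIH3 and ITIH1, all 3 were called in liver over both other tissues, and the liver pair ratio was -0.50, -2.09 and -0.53. C8B and C8A lie side by side with ratios of 0.59 and -2.03. In the pair ITIH2 and ITIH5, the first was called higher in liver than in rumen and the second had its highest mean in rumen. In the run SERPINA1, SERPINA11, SERPINA14 and SERPINA12, SERPINA1 and SERPINA11 were called higher in liver while SERPINA14 and SERPINA12 had at most 2 counts in any liver library.

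Other genes of coagulation and fibrinolysis, 27 tested from a list written for this pathway, were called higher in liver than in forebrain in 18 cases and lower in 3. In liver over rumen 13 were higher and 7 lower, and in rumen over forebrain 17 were higher. The shares of all tested genes were 29.4% higher and 25.9% lower, 20.3% and 20.1%, and 19.5% and 19.9%, in the same order. KNG1, kininogen, the bradykinin precursor, had 937 and 1316 CPM in liver and no counts elsewhere, and CPB2, the carboxypeptidase that slows fibrin breakdown, 102 and 294 CPM. HABP2, a plasma protease that binds hyaluronan, had 103 and 185 CPM and HRG, a heparin-binding plasma protein, 39.3 and 177 CPM in liver, also with no counts elsewhere. AMBP, whose product includes the light chain bikunin of the inter-alpha-trypsin inhibitors, had 4213 and 4057 CPM in liver, 0 and 0.234 CPM in rumen and 0 and 0.361 CPM in forebrain. The 5 called genes with the largest change between rumen and forebrain were all higher in rumen. F3, tissue factor, the trigger of coagulation, had 4.62 and 9.25 CPM in liver, 194 and 187 CPM in rumen and 19.8 and 14.9 CPM in forebrain (liver over rumen, log2 fold change -4.77, adjusted p = 0.000439; rumen over forebrain, log2 fold change 3.46, adjusted p = 0.00111). ANXA2, which binds plasminogen and its activator at the cell surface, had 87.0 and 248 CPM in liver, 903 and 896 CPM in rumen and 31.6 and 35.2 CPM in forebrain. Its partner S100A10 had 27.6 and 24.9 CPM in liver, 559.7 and 477 CPM in rumen and 49.1 and 51.8 CPM in forebrain. TFPI, the inhibitor of tissue factor, had 3.20 and 1.48 CPM in liver, 15.1 and 19.1 CPM in rumen and 1.54 and 1.01 CPM in forebrain, and F2RL2, a thrombin receptor, 7.89 and 9.31 CPM in liver, 20.05 and 30.3 CPM in rumen and 1.95 and 3.39 CPM in forebrain.

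Of 22 other complement genes tested, 15 were called higher and 3 lower in liver over forebrain, 12 higher and 3 lower in liver over rumen, and 4 in each direction in rumen over forebrain. The shares of all tested genes were 29.4% higher and 25.9% lower, 20.3% and 20.1%, and 19.5% and 19.9%, in the same order. The counts in rumen over forebrain were thus near the share of all genes. VTN, vitronectin, which blocks pore assembly, had 2048 and 2043 CPM in liver, no counts in rumen and 0 and 0.144 CPM in forebrain. MBL1, a mannose-binding lectin, had 22.2 and 32.0 CPM in liver, no counts in rumen and 0 and 0.0722 CPM in forebrain. MASP1, a protease of the lectin route, had 89.3 and 115 CPM in liver, 0.689 and 0.468 CPM in rumen and 52.9 and 36.1 CPM in forebrain (rumen over forebrain, log2 fold change -6.24, adjusted p = 0.000294), and COLEC11, one of the recognition collectins of that route, 68.6 and 57.5 CPM in liver, 0 and 0.0780 CPM in rumen and 9.19 and 7.79 CPM in forebrain. COLEC12, a membrane collectin, had 0.223 and 0.257 CPM in liver, 148 and 180.3 CPM in rumen and 5.61 and 16.7 CPM in forebrain, highest in rumen (liver over rumen, log2 fold change -9.36, adjusted p = 0.000344). SUSD4, a complement-control protein, had 0.149 and 1.35 CPM in liver, 19.7 and 19.2 CPM in rumen and 74.6 and 82.3 CPM in forebrain, highest in forebrain (liver over forebrain, log2 fold change -6.65, adjusted p = 0.000612), and CSMD3 no counts in liver, 0.153 and 1.17 CPM in rumen and 1.30 and 1.44 CPM in forebrain. ITGB2, the beta chain of leukocyte complement receptors, had 27.7 and 16.6 CPM in liver, 0.306 and 0.156 CPM in rumen and 2.28 and 5.48 CPM in forebrain, and C4A, the component cut by C1S, 14.7 and 14.5 CPM in liver, 29.5 and 30.7 CPM in rumen and 2.44 and 2.38 CPM in forebrain.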

How the data were processed

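Poly(A) RNA of liver, rumen and forebrain was measured in 6 libraries, 2 per tissue. The deposited values are the authors' raw counts per gene symbol, 1 column per library, each matched to its label by name. Per the submitters' processing notes the tools were HISAT2 2.0.5, featureCounts 1.5.0-p3 and edgeR 3.18.1. Genome build and annotation, and whether strand was used, are not given in the sources. Members and lists were chosen with earlier results of these data known.

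The test was that of edgeR 4.0.16 (R 4.3.3, limma 3.58.1): filterByExpr, TMM scaling, 1 mean per tissue, 3 residual degrees of freedom, glmQLFTest, and Benjamini-Hochberg adjustment over the 11478 tested genes in each of 3 comparisons. SE belong to log2 fold changes. Liver library ratios used log2 CPM with a prior count of 2. The code was tested on simulated counts. Alternatives were RLE scaling, scaling without 8 haemoglobin genes, no filter, DESeq2 1.42.0, the label number as a replicate block, and leaving out each library. The main fit did not pair libraries by number, because the labels do not say whether the numbers stand for fetuses.

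Genes given in full were, by rule, the 3 of highest mean CPM per role, the 5 of highest mean CPM per tissue, those called against the direction of liver or between rumen and forebrain (up to 10 by fold change), the 5 extremes each way of the liver pair, and the 5 largest called changes of each pathway list. Other members named were chosen to account for each role after their values were seen. A few single genes are counted in the totals but not reported here, and no sequences were used here.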

Additional observations from a re-analysis of the deposited data

How the results depend on the processing

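No called fold change of a member changed sign under any alternative tried. Among fold changes that were not called, 18 changed sign with a library left out and none under another alternative, with these log2 ranges over the left-out libraries: in liver over forebrain F8 -0.97 to 0.53, SERPINB8 -0.85 to 0.36 and SERPINE3 -0.59 to 0.35; in liver over rumen F8 -0.79 to 0.71 and SERPINB9 -0.27 to 1.57; in rumen over forebrain C2 -2.07 to 0.44, C3 -0.55 to 0.37, C8G -0.0028 to 0.38, CFP -0.64 to 0.29, F10 -5.66 to 0.61, F12 -3.52 to 0.089, F13A1 -0.15 to 0.028, F5 -3.75 to 1.69, F8 -0.49 to 0.10, FGB -0.64 to 1.11, ITIH2 -1.95 to 1.44, SERPINA5 -0.31 to 1.32 and SERPINC1 -0.27 to 2.69. F10 and F5 had no counts in Rumen 1, so their lowest values, without Rumen 2, are no bounds. With libraries left out in turn, members called higher in liver over forebrain numbered 51 to 58 (56 with all libraries) and lower 2 to 2. Those higher in liver over rumen numbered 46 to 54 (51) and lower 3 to 8 (6), the 3 without Rumen 1 or Rumen 2. Those higher in rumen over forebrain numbered 9 to 20 (17), with 9 without Rumen 2 or Forebrain 2 and 10 without Forebrain 1, and lower 3 to 10 (6), with 3 without Rumen 1, Rumen 2 or Forebrain 2 and 10 without Liver 2. The cause was not tested. With label numbers as a replicate block the counts were 54 and 2, 50 and 5, and 15 and 6 in the same order. The deviations of same-numbered libraries had correlations of 0.0754 (liver and forebrain), -0.00177 (liver and rumen) and -0.0585 (rumen and forebrain). Such correlations cannot show whether a number stands for a fetus, because differences between fetuses need not be shared by tissues. RLE scaling lost C5, SERPINA1 and SERPINB6 in rumen over forebrain, and DESeq2 lost SERPINA3-8 in both liver comparisons. DESeq2 added ITIH5 in liver over rumen and ITIH4 in rumen over forebrain, the latter also added under a replicate block and with no filter. The median log2 ratio of Liver 1 to Liver 2 over members was -0.06, -0.106 on raw totals and -0.59 scaled to hepatocyte markers. With 2 libraries per tissue, members with 28 counts or fewer in all were not tested.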

Other observations

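Among transcription factors known for the hepatocyte programme, 15 were tested from a list of 20. In liver over forebrain 13 were called higher, in liver over rumen 8 higher and 1 lower, and in rumen over forebrain 5 higher. The shares of all tested genes were 29.4% higher and 25.9% lower, 20.3% and 20.1%, and 19.5% and 19.9%, in the same order. HNF4A, a nuclear receptor that binds the promoters of many plasma protein genes, had 107 and 329 CPM in liver, no counts in rumen and 0.244 and 0.361 CPM in forebrain (liver over forebrain, log2 fold change 9.44, adjusted p = 0.000509). FOXA3 had 46.2 and 99.2 CPM in liver, 0.0765 and 0 CPM in rumen and 0.0813 and 0.144 CPM in forebrain, CREB3L3, a membrane-bound factor of the acute phase, 38.3 and 44.3 CPM in liver, no counts in rumen and 0.407 and 0 CPM in forebrain, and NR1H4, the bile acid receptor, 17.6 and 28.3 CPM in liver, 0.842 and 3.75 CPM in rumen and no counts in forebrain. HNF4A and FOXA3 were higher in Liver 2 than in Liver 1, as were F2, F11, PROC and ITIH3. These are values of 1 library each, without a test.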
